A study of Mus musculus with 4 samples.

Results

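OPC-only regions outside genes are stretches of open chromatin that carried a peak in both libraries of oligodendrocyte progenitor cells (OPCs) and in neither library of oligodendrocytes (OLs). They were found by merging the overlapping or touching peaks of 4 deposited peak lists. Regions were kept when the midpoint lay outside every RefSeq protein-coding gene of mm10 and more than 1 kb from any gene end. The rule gave 10531 regions out of 229485 merged regions on the main chromosomes. Of the merged regions, 91475 lay outside genes, so OPC-only regions made up 11.5% of those outside genes, against 9.89% for OPC-only regions anywhere. OL-only regions, with the converse pattern, numbered 12530 (13.7% of regions outside genes), and shared regions, with a peak in all 4 lists, numbered 18453 (20.2%). The remaining 49961 regions outside genes had other combinations of peaks. OPC-only regions inside gene bodies numbered 10752, and 1419 more lay within 1 kb of a gene end.

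The assay was Omni-ATAC-seq, which tags open DNA in nuclei with the Tn5 transposase. All cells were mouse cells derived from 1 of 2 epiblast stem cell lines, 129O1 and EpiSC5, which are pluripotent lines of the post-implantation embryo; strains 129SvEv and 129S1/SvImJ are named in the labels and were not assigned to lines here. OPCs of either line were cultured without SHH, in medium with 20 ng/mL bFGF and 20 ng/mL PDGFA, purified after 4 passages by sorting for CD140a and NG2 and then expanded, and OLs were sorted as O1-positive cells. Each cell type had 1 library of 50000 cells per line (n = 2), and it is not stated if the libraries are separate differentiations. OLs at the O1 stage in culture are immature. The members were chosen by the presence and absence of peaks in all 4 lists, so counts of peaks by cell type are given below as descriptions, with no test and no p-value. The spread between the lines is shown by applying the rule to each line alone, as a peak in its OPC list and none in its OL list. The members are by rule part of the set of each line, so the values of the lines are not independent support for a share that was high among the members.

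Open chromatin outside genes and in introns holds many enhancers, short stretches that bind transcription factors and can raise the transcription of a gene at some distance. Enhancers act more cell type by cell type than gene starts do. OPCs divide in response to PDGFA and FGF and express factors such as Sox2 and Sox6, and leave the cell cycle as they turn into OLs, which make myelin. The nearest gene to an open region is not always the gene that it controls.

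The lists held 125002 to 152595 peaks over 35.0 to 44.1 Mb, with median peak widths of 190 to 237 bp. A peak lay in 51.5% of regions outside genes for 129O1 OPCs, 53.7% for EpiSC5 OPCs, 44.6% for 129O1 OLs and 57.2% for EpiSC5 OLs. The 129O1 OL list was thus the sparsest outside genes and the EpiSC5 OL list the fullest, and absence of a peak means only that none passed the caller's threshold. Markers of the labelled cell types were checked at gene starts, where counts differed little between OPCs and OLs of a line, apart from myelin genes in 129O1. Of 23 OPC identity genes with a known start, 20 and 21 had a peak within 1 kb of it in OPCs, and 19 and 20 in OLs. For 21 oligodendrocyte and myelin genes the counts were 13 and 20 in OPCs and 19 and 18 in OLs, and for 12 microglia and immune genes 4 and 3 in OPCs and 3 and 3 in OLs. Vascular and mesenchymal genes had open starts at 10 and 10 of 15 in OPCs and 7 and 6 in OLs; the part of such cells in the regions below was not tested.

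The microRNAs miR-181a and miR-181b were encoded inside 1 of the regions, and their mature sequences are shown because this was the only OPC-only region outside genes that held whole hairpins of 2 microRNAs. It lay at chr1:137966214-137966779 (mm10), 96.4 kb from Ptprc, which encodes the leukocyte antigen CD45. Capitals mark the seed, bases 2 to 8, which pairs with target transcripts. The sequences are from RefSeq (GRCm38.p6).
mmu-miR-181a-5p: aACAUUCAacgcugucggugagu
mmu-miR-181b-5p: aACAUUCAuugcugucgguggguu
mmu-miR-181a-1-3p: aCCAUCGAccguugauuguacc
mmu-miR-181b-1-3p: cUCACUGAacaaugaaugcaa
Both 5p arms carry the seed ACAUUCA, and the 3p arms carry the different seeds CCAUCGA and UCACUGA. The region had a fold enrichment over background, the authors' own value for each peak, of 9.57 in the 129O1 OPC list and 9.98 in the EpiSC5 OPC list, and covered 525 and 559 bp. The other hairpins in OPC-only regions were Mir7671 near Irf1 and, in part, Mir6393 near Tafa5. Altogether 3 of 10531 OPC-only regions held or touched a hairpin of the 1005 in the table, against 6 of 12530 OL-only and 23 of 18453 shared regions.

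Start windows of long non-coding RNAs (lncRNAs) were the other sequences at hand, running from 250 bases before to 50 bases after an annotated start. Of 11547 windows, 54 lay wholly inside OPC-only regions outside genes. The 3 shown, chosen after their values were seen, hold the most kinds of motif among AP-1, TEAD and E-box, with ties ordered by fold enrichment. Capitals mark matches on either strand to the AP-1 motif TGANTCA, the TEAD motif GGAATG or the E-box CAGCTG, and each line reads along the strand of the lncRNA.
Gm33841, chr2:61533237-61533536, plus strand: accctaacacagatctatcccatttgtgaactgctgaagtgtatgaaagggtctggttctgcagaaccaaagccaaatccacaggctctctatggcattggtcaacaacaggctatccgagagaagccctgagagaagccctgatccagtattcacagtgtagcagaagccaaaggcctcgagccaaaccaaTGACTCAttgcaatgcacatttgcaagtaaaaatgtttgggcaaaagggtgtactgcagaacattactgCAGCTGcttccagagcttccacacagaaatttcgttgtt
Gm34358, chr6:55154179-55154478, plus strand: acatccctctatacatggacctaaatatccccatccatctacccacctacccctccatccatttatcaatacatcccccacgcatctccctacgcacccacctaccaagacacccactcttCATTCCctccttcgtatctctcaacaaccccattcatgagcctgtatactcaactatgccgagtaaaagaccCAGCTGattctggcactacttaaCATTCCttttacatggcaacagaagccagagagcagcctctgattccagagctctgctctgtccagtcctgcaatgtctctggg
Gm32544, chr4:47638828-47639127, minus strand: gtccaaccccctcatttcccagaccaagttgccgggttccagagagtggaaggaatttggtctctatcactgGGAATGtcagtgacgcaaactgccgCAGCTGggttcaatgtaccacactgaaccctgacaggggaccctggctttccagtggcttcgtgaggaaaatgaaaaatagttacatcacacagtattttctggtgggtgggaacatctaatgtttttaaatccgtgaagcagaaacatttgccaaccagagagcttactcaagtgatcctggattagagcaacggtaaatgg
The Gm33841 window, 45.2 kb from Tank, has an AP-1 match and an E-box, and its region had a fold of 14.2 in 129O1 and 14.4 in EpiSC5. The Gm34358 window, 16.3 kb from Inmt, has 2 TEAD matches around an E-box and a fold of 10.8 and 16.7. The Gm32544 window, 156 kb from Sec61b, has a TEAD match and an E-box and a fold of 10.6 and 11.2. Since fold ordered the ties, the height of these values was set by the choice.

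Across start windows with at least 150 bp in an OPC-only region outside genes (n = 137), 35.8% held an E-box, the site of basic helix-loop-helix factors such as Olig2, against 17.6% of all 11547 windows and 20.3% of 492 windows in shared regions. The AP-1 motif, bound by Fos and Jun dimers, was in 16.1%, against 9.24% of all windows and 9.76% in shared regions. The TEAD motif, bound by the factors that partner Yap, was in 23.4%, against 16.6% of all windows and 74 of 492 in shared regions. In OL-only regions only 31 windows could be read: 13 (41.9%) held an E-box, a higher share than in the OPC-only windows, 2 an AP-1 match and 2 a TEAD match, and 10 held the SOX motif AACAAT. That SOX motif was in 13.1% of the OPC-only windows, close to 13.8% of all windows. The palindromic NFI motif was in 1 OPC-only window and in 5 of all windows, and the ETS motif CCGGAAGT in 1 OPC-only window and in 1.58% of all. Median GC content was 51.3% in the OPC-only windows, 48.3% in all windows, 53.7% in shared and 47.0% in OL-only windows. These windows stand for 1.70% of the OPC-only regions at most, and a match is a string of letters, not a bound site.

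OPC-only regions outside genes were of middling strength within their lists. Fold enrichment had a median of 7.05 in 129O1 (lowest 2.04, highest 21.5) and 6.998 in EpiSC5 (lowest 1.97, highest 23.0). That put the typical region at percentile 52.6 and 52.0 of all peaks in its list. Shared regions outside genes ranked higher, at 71.1 and 72.1, and OPC-only regions in gene bodies lower, at 45.1 and 45.3. OPC-only regions at gene ends stood at 23.0 and 18.8. The median covered width was 201 bp in 129O1 and 230 bp in EpiSC5, and together the regions covered 2.49 and 2.89 Mb. Both OPC peaks exceeded their list's median fold in 3801 regions (36.1%), against 64.6% of shared regions. The fold percentile in 1 line tracked that in the other less closely than for shared regions. Across the 10531 regions Pearson's r was 0.498 and Spearman's rho 0.485, and across the 18453 shared regions 0.745 and 0.734, as a description over regions of the same libraries. Near the caller's threshold, with −log10 q under 5, lay 535 regions (5.08%) in 129O1 and 132 (1.25%) in EpiSC5.

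The regions with the highest fold ranks lay 66.8 to 590 kb from their nearest genes. Whether fold changed with distance over all OPC-only regions was not tested. The highest pair of fold ranks was at chr2:123364214-123364622, 555 kb from Sqor, the mitochondrial sulfide oxidase, with a fold of 20.1 and 23.0. A region 110 kb from Lratd2 followed with 21.5 and 20.5, then one 590 kb from Anxa1, encoding annexin A1, with 18.7 and 20.7. The other top regions were 66.8 kb from Mbl2, a lectin gene, with 18.7 and 19.4, and 308 kb from Tox3, an HMG-box factor gene, with 18.8 and 18.4. By covered sequence the largest was at chr11:119521833-119523616 near Endov, where 924 bp were covered in 129O1 and 1562 bp in EpiSC5 at a modest fold of 6.32 and 6.45. Next came regions near Bms1, Olfm4, Plpp1 and Ppp1r2, with 818 to 1037 bp in 129O1 and 936 to 1413 bp in EpiSC5. The largest regions were thus not the strongest.

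Distances to OL peaks varied widely. The nearest OL peak lay a median of 5509 bp away, within 1 kb for 1855 regions (17.6%) and beyond 10 kb for 3465 (32.9%). For OL-only regions and the nearest OPC peak the median was 4389 bp, with 20.2% within 1 kb. At the edge of the rule, the closest regions kept were 1004, 1007 and 1008 bp from the ends of Rcan1, C1s2 and Osbpl11, with fold from 3.52 to 6.61, and the closest left out were 984, 997 and 999 bp from Rusf1, Sostdc1 and 4930583I09Rik, with fold from 4.39 to 9.003.

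OPC-only regions lay farther from genes than shared regions and about as far as OL-only regions and regions with other combinations of peaks. The median distance to the nearest protein-coding gene was 43.03 kb (10th to 90th percentile 5.19 to 295.5 kb), against 26.0 kb for shared, 43.2 kb for OL-only and 38.4 kb for all regions outside genes. Applied to each line alone, the rule gave 41.9 kb in 129O1 and 41.5 kb in EpiSC5 (41.7 ± 0.277 kb, SD, n = 2). More than 100 kb from any gene lay 3266 regions (31.0%), against 31.9% of OL-only and 21.3% of shared regions, and the lines alone gave 30.5% and 30.4%. Regions with other combinations of peaks had a median of 42.4 kb, with 31.3% beyond 100 kb, so the shared regions were the class that stood apart. The spread between lines comes from a looser rule whose sets both hold the members, and it was not computed for shared or OL-only regions. It therefore cannot judge the differences between classes. Beyond 500 kb were 397 regions (3.77%), and the farthest was 2193 kb from a gene.

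**Figure D1:**
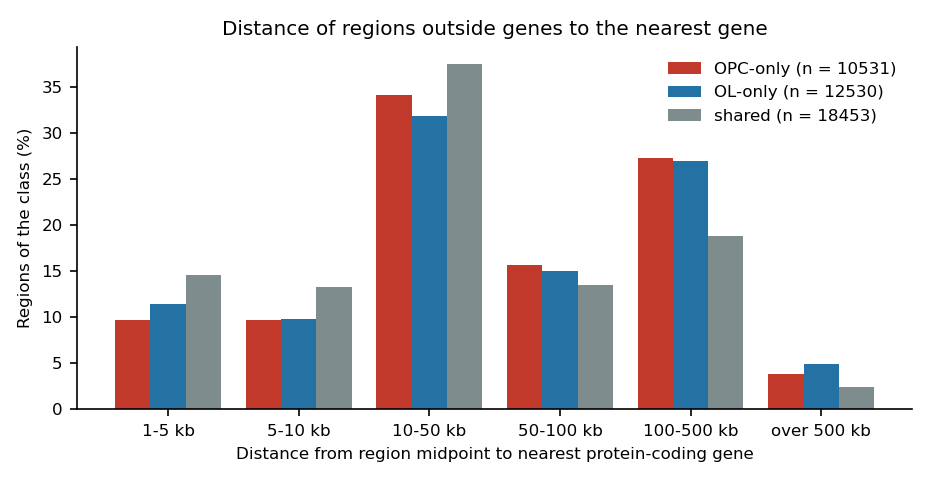
Share of regions of each class (y axis, percent) by distance from the region midpoint to the nearest protein-coding gene (x axis, kb). Bars are OPC-only, OL-only and shared regions outside genes; shared regions hold the larger share within 50 kb and the smaller share beyond it.

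Read the other way, the share of regions outside genes that were OPC-only rose with distance from 9.76% at 1 to 5 kb to 2869 of 23023 (12.46%) at 100 to 500 kb and was 10.5% beyond 500 kb. Over the same span shared regions went from 25.8% to 11.9%. OL-only regions stood at 13.8% nearest to genes, 12.6% at 5 to 10 kb and 16.3% farthest away. The start side of the gene held 53.8% of the 8043 OPC-only regions with a known strand of the nearest gene, against 52.3% of all regions outside genes. By the length of the stretch between neighbouring genes, the OPC-only share was 8.75% in stretches under 20 kb, 10.8% at 20 to 100 kb, 12.2% at 100 to 500 kb, 12.47% at 500 kb to 1 Mb and 11.3% over 1 Mb. In density the order differed, with 7.21 OPC-only regions per Mb in stretches under 20 kb, 9.39 at 20 to 100 kb and 2.96 over 1 Mb. The OPC-only share by chromosome was 9.78% to 12.9% on the autosomes and 14.5% on X (361 of 2491). On Y it was 1.53%, from 5 regions.

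Most genes nearest to an OPC-only region had a single one. The regions had 4913 different nearest genes, of which 2697 had 1, 462 had 5 or more and 73 had 10 or more. Those 73 genes took 892 regions (8.47%), while for OL-only regions 130 genes with 10 or more took 13.7%. The number of regions outside genes nearest to a gene, called its territory here, depends on how far away the next gene is, so each count is set beside the territory's total.

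Myc, which encodes a transcription factor that drives growth and division, was nearest to the most OPC-only regions, 28 of 144 in its territory (19.4%, against 11.5% of all regions outside genes), beside 12 OL-only and 20 shared regions. They lay 11.0 to 706 kb from the gene, with a median of 404 kb. Peaks in the territory numbered 85 in 129O1 and 83 in EpiSC5 OPCs and 46 and 75 in OLs, over 23.7 and 28.4 kb in OPCs and 9.63 and 17.6 kb in OLs. Both OPC libraries were above both OL libraries, and the OL libraries differed from each other more than the OPC libraries did. Since OPC-only regions add to the OPC counts alone, the order of the cell types was partly set by the choice of this gene. In 129O1 alone, 58.8% of regions in the territory had an OPC and no OL peak, against 38.3% of all regions outside genes in that line. In EpiSC5 alone it was 40.8% against 31.7%. Pvt1, the lncRNA gene next to Myc, held 6 of the OPC-only regions among 40 regions outside genes.

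The SOX genes differed among themselves. Sox4, a SoxC factor of immature neural cells, had 17 OPC-only regions of 54 (31.5%) and 4 OL-only regions, and in the lines alone 57.7% in 129O1 and 47.9% in EpiSC5. Its territory held 44 and 41 peaks in OPCs and 24 and 25 in OLs. The lncRNA gene 2610307P16Rik, which fills much of the flank beyond the Sox4 end, held 15 OPC-only regions, nearest to Sox4 or Prl5a1, and was the non-coding gene with the most. Sox2, a factor of neural stem cells and OPCs, had 19 OPC-only of 126 regions (15.1%) but also 23 OL-only and 27 shared, and peaks numbered 75 and 67 in OPCs and 67 and 84 in OLs, which overlap. Sox9, a SoxE factor of glial precursors and astrocytes, had 13 OPC-only and 16 OL-only regions of 65. Sox6, a SoxD factor that keeps OPCs immature, had 5 OPC-only and 14 OL-only regions of 56. Thus of these 4 genes only Sox4 had more OPC-only than OL-only regions.

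Other genes with many OPC-only regions had few OL-only ones. Tmpo, which encodes a lamina-associated protein of the nuclear envelope, had 16 OPC-only of 42 regions (38.1%) and 2 OL-only, with 32 and 34 peaks in OPCs against 13 and 12 in OLs. Its share in each line alone was 62.9% and 66.7%. Cited2, a partner of the coactivators CBP and p300, had 18 of 82 (22.0%) against 9 OL-only, and 65.5% and 49.2% in the lines. Bcor, an X-linked corepressor gene, had 18 of 78 against 8, and 48.1% and 53.5%. Acvr2a, an activin receptor, had 15 of 70 against 5, and 57.4% and 41.7%. Nr2f1, an orphan nuclear receptor of forebrain patterning, had 12 of 55 against 2, with 37 and 39 peaks in OPCs and 25 and 25 in OLs. Each of these 5 territories had more peaks in both OPC lists than in both OL lists. Every OPC-only region adds a peak to both OPC lists and none to the OL lists. The genes were grouped for many OPC-only and few OL-only regions, so that order was largely set by the choice.

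Several genes high on the list by number had as many or more OL-only regions. Adgrl2, the adhesion receptor latrophilin 2, had 16 OPC-only (14.7%) and 28 OL-only regions of 109. In EpiSC5 alone 28.6% of its regions had an OPC and no OL peak, below the 31.7% of all regions, while in 129O1 it was 47 of 98 regions. Tbl1xr1, a subunit of the NCoR corepressor, had 15 against 22 of 103, the pseudokinase gene Trib2 17 against 18 of 103, and Epha4, a receptor of ephrins, 15 against 15 of 84. The others of the 15 genes with the most OPC-only regions were Pja1 (17 of 67), Gm6569 (15 of 58), Eno1b (15 of 66) and the Groucho corepressor Tle4 (14 of 78), each with 3 to 10 OL-only regions.

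**Figure D2:**
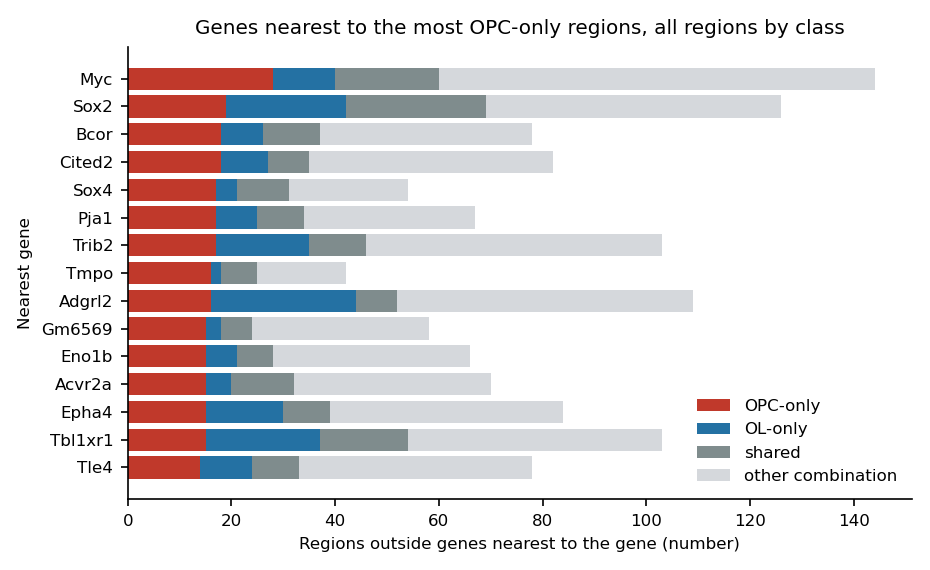
Regions outside genes (x axis, number) nearest to each of the 15 genes with the most OPC-only regions (y axis), with bar segments for OPC-only, OL-only, shared and other combinations of peaks. Tmpo and Sox4 have short bars with a large OPC-only segment, and Sox2, Adgrl2 and Tbl1xr1 have more OL-only than OPC-only regions.

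The side of the gene on which the regions lay varied from gene to gene. All 18 at Cited2, all 15 at Acvr2a, all 12 at Klf4, all 11 at Mki67 and 15 of 16 at Tmpo lay on the start side. At Sox4 15 of 17, and at Dusp6, Isl1 and Ptprc all 6, 7 and 9, lay on the end side. The distances ran to 1199 kb at Cited2 and 1421 kb at Acvr2a, genes beside long stretches with no other gene. A side without a region can be a side on which another gene is close.

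**Figure D3:**
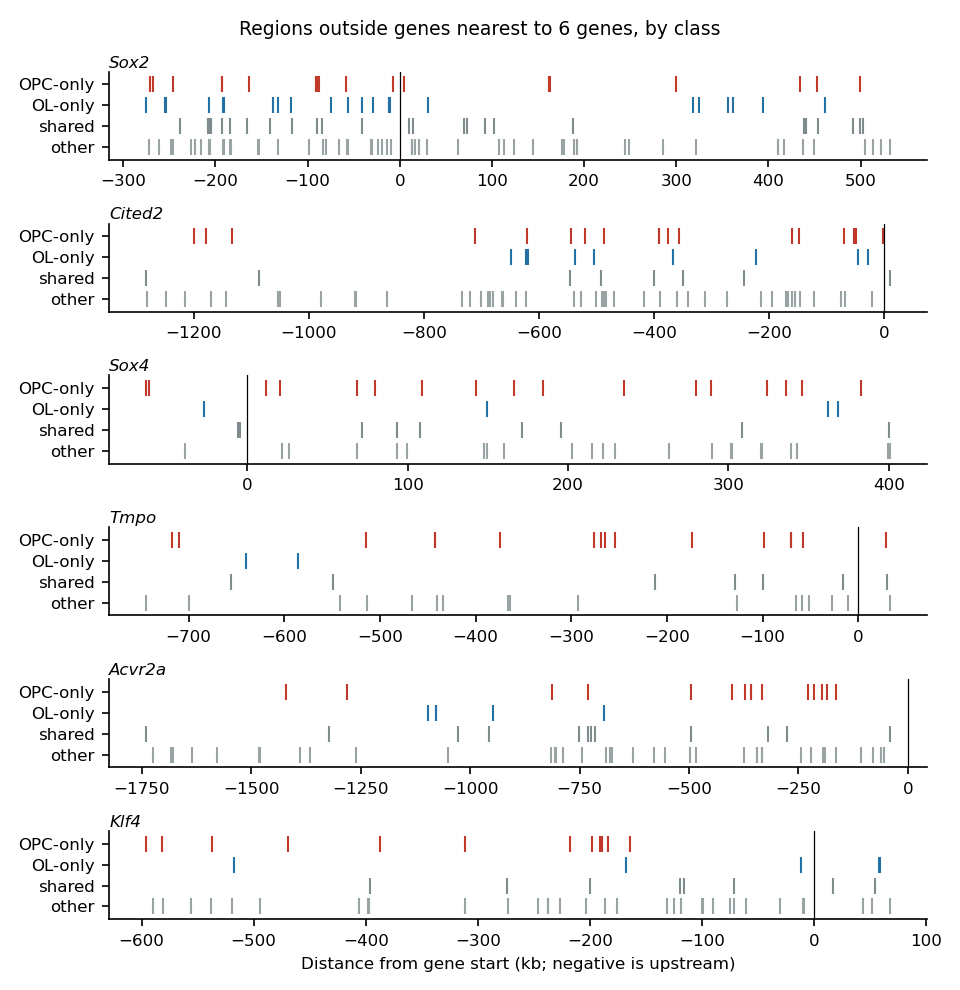
Position of each region outside genes (tick marks) relative to the start of its nearest gene (x axis, kb, negative is upstream along the gene) for 6 genes, in 4 lines by class of region. OPC-only regions of Cited2, Acvr2a and Klf4 all lie upstream, those of Sox4 mostly downstream, and those of Sox2 on both sides among OL-only regions.

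The highest OPC-only shares came from small territories. Among genes with at least 10 regions, Pipox, a peroxisomal oxidase, had 6 of 10 and 6030498E09Rik on X 7 of 12. Pax8, a factor of thyroid and kidney, and Slc44a3, a choline transporter-like protein, had 6 of 11 each. Vmn2r121, a vomeronasal receptor gene, had 6 of 12, and the Hedgehog co-receptor gene Cdon, the polarity gene Crb2, the GABA-A receptor gene Gabrb2, Sntg2 and Usp31 had 5 of 10 each. OL-only regions numbered 0 or 1 at each of these genes. The genes were chosen for their share, so the shares are descriptions of a top list. The start of Crb2 had a peak in both OPC lists and in neither OL list, whereas that of Slc44a3 had the converse, and those of Pax8 and Cdon had a peak in none.

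Gene lists were set against all genes by the share of their territories that was OPC-only (11.5% over all) and OL-only (13.7% over all). The lists were chosen with earlier results of these data known. A single gene can weigh heavily, so the share without the gene with the most OPC-only regions is given beside it.

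Early response and cell cycle genes had the highest shares, with Myc on both lists. Without each list's leading gene, lineage transcription factors were highest at 15.3%. For AP-1 and early response factors, 61 of 365 regions (16.7%) were OPC-only and 34 (9.32%) OL-only, and without Myc the OPC-only share was 14.9%. In the lines alone it was 52.5% in 129O1 (38.3% over all genes) and 35.8% in EpiSC5 (31.7%). Of the 21 genes, 7 had more OPC-only than OL-only regions, 3 had fewer and 11 had equal numbers, including 0. Over all 21887 genes these counts were 2881, 3553 and 15453. The median gene of the list had 0 OPC-only regions, as over all genes. Klf4, a Kruppel-like factor, had 12 of 58 and Jun, an AP-1 subunit, 6 of 40. For 32 cell cycle genes, 66 of 410 (16.1%) were OPC-only and 41 (10.0%) OL-only. Without Myc the share was 14.3%, and the lines gave 47.5% and 35.7%. Mki67, the proliferation marker Ki-67, had 11 of 68, and Mycn, the Myc relative of neural progenitors, 8 OPC-only and 13 OL-only of 51. In the lines alone both genes were below the totals over all genes. Mki67 gave 35.6% in 129O1 and 29.0% in EpiSC5, and Mycn 36.6% and 23.9%.

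Genes of OPC identity and of myelin had the lowest shares. Microglia and immune markers were close over both lines together, but their lines lay on opposite sides of the totals. For 30 OPC identity genes, 36 of 427 regions (8.43%) were OPC-only and 94 (22.0%) OL-only. Of these genes, 17 had more OL-only and 1 more OPC-only regions, against 3553 and 2881 of all 21887 genes. Both lines alone lay below their totals, at 27.5% in 129O1 and 23.6% in EpiSC5. Xylt1, which starts the sugar chains of proteoglycans, gave 10 of the 36, and without it the share was 7.10%. For 31 oligodendrocyte and myelin genes, 14 of 236 regions (5.93%) were OPC-only and 47 (19.9%) OL-only, and the lines gave 29.4% and 18.4%. No myelin list gene had 3 or more OPC-only regions, and the most at one, Ugt8a, which makes the myelin lipid galactocerebroside, was 2. Without it the share was 5.48%.

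**Figure D4:**
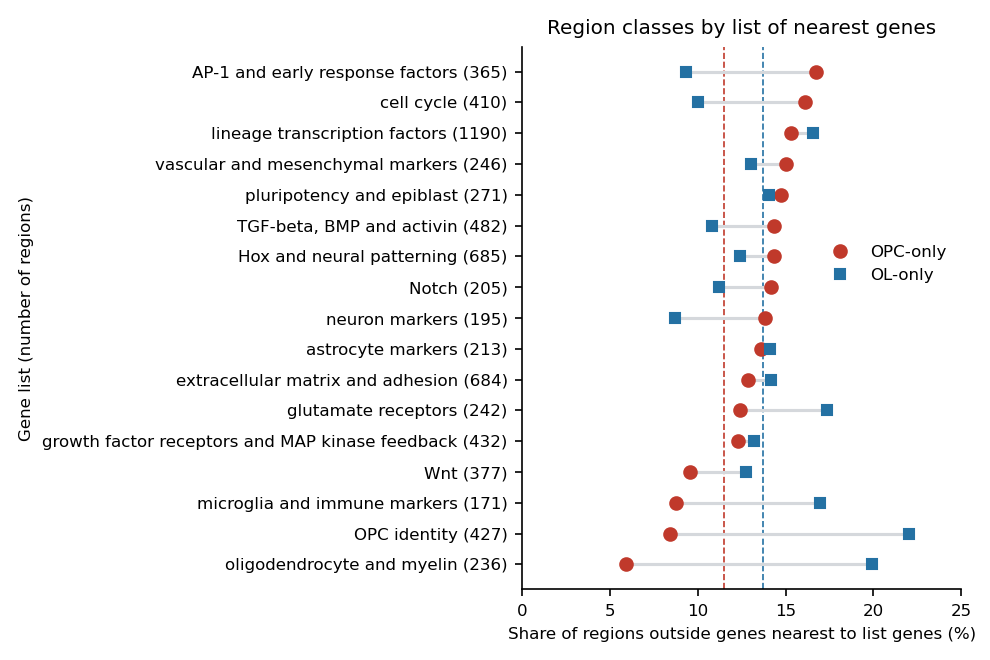
Share of regions outside genes nearest to the genes of each list (x axis, percent) that were OPC-only (circles) or OL-only (squares), with the number of regions behind each list name. Dashed lines give the shares over all genes, 11.5% OPC-only and 13.7% OL-only; OPC identity and oligodendrocyte genes lie left of the OPC-only line and right of the OL-only line.

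Lineage and patterning factors held many regions of both kinds. For 39 lineage transcription factors 182 of 1190 regions (15.3%, and 15.3% also without Sox2) were OPC-only and 197 (16.6%) OL-only. In the lines alone the share was 41.2% in 129O1 and 31.6% in EpiSC5, so in EpiSC5 it equalled the 31.7% of all genes to within 1 percentage point. Klf6, a Kruppel-like factor with a known role in myelination, had 14 of 84. For 43 Hox and neural patterning genes 98 of 685 (14.3%, or 13.7% without Nr2f1) were OPC-only, with 43.4% and 36.2% in the lines, and Nr2f2 and Meis1, both transcription factors of neural patterning, had 11 of 43 and 10 of 64.

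Signalling lists varied. TGF-beta, BMP and activin genes had 69 of 482 regions OPC-only (14.3%, or 13.1% without Acvr2a) and 52 OL-only (10.8%). The lines gave 49.0% and 32.4%, so the excess lay mostly in 129O1. Id2, an inhibitor of bHLH factors that BMP induces, had 9 of 63, and the receptor Tgfbr2 7 of 23. Notch genes had 29 of 205 (14.1%), or 20 of 160 without Hes1, the Notch target repressor, which had 9 of 45. Growth factor receptor and MAP kinase feedback genes, with 53 of 432 (12.3%, or 11.9% without Spred2), were near the background, although the ErbB ligand Nrg1 had 7 of 17 and the ERK phosphatase Dusp6 6 of 25. Wnt genes were below it at 36 of 377 (9.55%, or 8.41% without Fzd8), and the lines gave 31.3% and 30.2%. The receptor Fzd8 had 7 of 32, and Wnt5a, a ligand, had 4 of 15 with 0 OL-only. OL peaks were not absent from the Wnt5a territory, with 4 in 129O1 and 9 in EpiSC5, against 9 and 8 in OPCs. In 129O1 alone 6 regions had an OPC and no OL peak and 1 had the converse, and in EpiSC5 6 and 7.

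Marker lists of other cell types lay above the background with all their genes, except microglia and immune markers. Without its leading gene the astrocyte list was below the background, and the neuron list was close to it. Neuron markers had 27 of 195 regions OPC-only (13.8%) and 17 OL-only (8.72%), with 48.1% and 39.5% in the lines and 11.7% without Isl1, a factor of motor neurons, which had 7 of 24. Vascular and mesenchymal markers had 37 of 246 OPC-only (15.04%, or 13.99% without Cdh5) and 32 OL-only. The lines gave 43.2% and 39.3%, the latter above the AP-1 and cell cycle lists in EpiSC5. Cdh5, the endothelial cadherin, had 10 of 53. Astrocyte markers had 29 of 213 (13.6%), of which 13 were at Sox9, and 10.8% without it. For that list 129O1 gave 43.3% and EpiSC5 31.4%, against 38.3% and 31.7% over all genes. Microglia and immune markers had 15 of 171 (8.77%), of which 9 were at Ptprc, and 5.83% without it. Pluripotency genes had 40 of 271 (14.8%), of which 19 were at Sox2, and 14.5% without it. Extracellular matrix and adhesion genes had 88 of 684 (12.9%, or 12.3% without Ncam1), with Ccn1, a matricellular protein, at 7 of 22 and Tnc, tenascin-C, at 7 of 59.

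Glutamate receptor genes had 30 of 242 regions OPC-only (12.4%, or 11.2% without Grin2a) and 42 OL-only (17.4%). The lines differed in direction, with 36.1% in 129O1 (38.3% over all genes) and 43.3% in EpiSC5 (31.7%). Unlike the list as a whole, Grin2a had almost no OL peaks. This NMDA receptor subunit gene had 10 peaks in its territory in 129O1 OPCs and 15 in EpiSC5 OPCs, and 0 and 1 in OLs. Its 5 OPC-only regions lay 34.2 to 287 kb away, and peaks over its body, scaled to equal list totals, covered 2.36 and 3.72 kb in OPCs and 0 kb in both OL libraries. The other NMDA subunit gene on the list with 3 OPC-only regions, Grin2b, had 6 and 6 peaks in OPCs and 8 and 6 in OLs in its territory. Scaled coverage over the Grin2b body was 7.003 and 6.996 kb in OPCs and 4.15 and 2.57 kb in OLs. Grm3, with 5 OPC-only regions, had 10 and 13 peaks in OPCs and 8 and 7 in OLs. Its body coverage was 3.03 and 3.95 kb in OPCs and 1.36 and 1.54 kb in OLs. Higher body coverage in OPCs was thus not particular to Grin2a.

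Genes with many OPC-only regions around them mostly had a start that was open in both cell types. Of genes with 10 or more regions and a known start, 42 of 49 (85.7%) had a peak within 1 kb of the start in all 4 lists, against 59.9% of all genes and 57.2% of genes with none. Coverage over the gene's own body, which the rule did not use, was higher in both OPC lists than in both OL lists for 17 of 61 such genes (27.9%). That is close to the 25.1% over all 12556 genes with at least 0.5 kb of mean coverage. It was lower in both OPC lists for 12 of 61 (19.7%), against 32.5% over all genes. Genes with 1 region, with 2 to 4 and with 5 to 9 gave 28.3%, 28.3% and 27.2% higher, and 32.8%, 32.7% and 31.0% lower. Median gene length was 46.2 kb for genes with 10 or more regions and 17.2 kb over all genes, so these genes also differed in length. The start of Myc was not among those with a known start.

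OPC-only regions were mostly solitary. Linking neighbours over gaps up to the usual stitching distance for enhancers, which is between 10 and 15 kb and is the bin limit above 5 kb in the plot of next regions, left 7300 of 10531 (69.3%) alone and 1171 pairs, and put 889 (8.44%) in 271 clusters of 3 or more. OL-only regions, which are more numerous, reached 12.1% and shared regions 21.6%. The median gap between OPC-only neighbours was 82.2 kb, against 65.8 and 39.2 kb. Class sizes differ, so the number of regions was taken out by asking what followed each region within the linking distance along the chromosome. After an OPC-only region the next region outside genes was OPC-only in 1160 of 6962 cases (16.7%), against 11.5% after any region. It was OL-only in 10.5%, against 13.8% after any region, and shared in 18.8%, against 21.2%.

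Much of that excess came from regions less than 1 kb apart. At such gaps 24.0% of followers were OPC-only (554 of 2308), against 11.0% after any region. At 1 to 2.5 kb the share was 10.7% against 11.3%, and at 2.5 to 5 kb 12.3% against 11.8%, within 1 percentage point of any region. From 5 kb to the linking distance it was 14.4% against 11.8%, from there to 25 kb 14.8% against 12.2%, and from 25 to 50 kb 14.3% against 12.2%. Each line alone gave the same order. Under 1 kb, regions with an OPC and no OL peak were followed by another in 56.2% (36.5% after any region) in 129O1 and 53.9% (28.9%) in EpiSC5. At 1 to 5 kb the values were 39.2% (38.0%) and 31.6% (30.8%), and from 5 kb to the linking distance 43.7% (38.6%) and 36.5% (31.6%). OL-only regions had the same profile, with 26.8% under 1 kb and 14.4% at 1 to 2.5 kb. With peaks up to 200 bp apart merged, the next region within the linking distance was OPC-only in 14.6% of cases against 11.6% after any region, and 5.96% of regions were in clusters. With no OL peak allowed within 1 kb, the next-region share was 17.98% against 8.89% after any region. That setting bars OL peaks from the 1 kb around each kept region, so part of this difference was set by it.

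The excess varied with the strength of the peaks used. With the upper 50% of peaks by q in each list, the next region was OPC-only in 13.4% of cases against 12.2% after any region, and 1.71% of regions were in clusters. With the upper 50% of OPC peaks and the whole OL lists, the values were 6.62% against 3.63%.

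**Figure D5:**
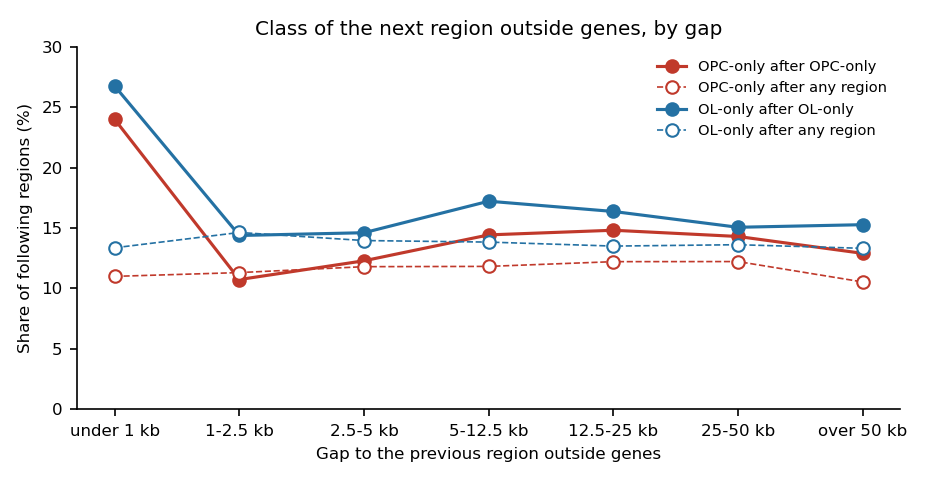
Share of following regions (y axis, percent) that were OPC-only after an OPC-only region or OL-only after an OL-only region (filled points, full lines), and after any region (open points, dashed lines), by the gap between neighbouring regions outside genes (x axis). Full lines lie well above dashed lines under 1 kb, meet them at 1 to 2.5 kb and lie 2 to 4 points above them from 5 to 25 kb.

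The cluster with the most members, 6 within 24.6 kb at chr15:25278601-25303246, lay 60.2 to 84.5 kb from Basp1, which encodes a membrane protein of growth cones. Its fold ran from 4.84 to 10.4 in 129O1 and from 5.83 to 15.02 in EpiSC5, with 1 other region and no OL-only region between. At Sox11, a SoxC factor like Sox4, 5 regions lay 5.73 to 29.1 kb from the gene among 8 regions in 23.6 kb, 2 of them OL-only. All 5 of the Slc45a1 cluster, at chr4:150707148-150722052, lay in the lncRNA gene Gm36600. There were 12 clusters of 5, and the 9 with the most covered sequence are named. Those besides Sox11 and Slc45a1 lay near Ccdc34, Slc35c2, Uaca and Smad5, the latter a BMP signal transducer, and between Wasf2 and Ahdc1, Tspan17 and Unc5a, and Bod1 and Cpeb4. In 6 of the 10 clusters named no OL-only region lay between the members, and none of the 10 held more than 2.

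Non-coding genes held some of the regions. Outside protein-coding genes, 1984 OPC-only regions (18.8%) lay in lncRNA genes, against 18.7% of shared, 16.5% of OL-only and 17.6% of all regions outside genes. Over the start window of an lncRNA lay 179 (1.70%), against 55 OL-only (0.439%), 542 shared (2.94%) and 1.34% of all. The lines alone gave 1.29% in 129O1 and 1.37% in EpiSC5 for a peak in OPC and not OL, and 0.582% and 0.425% for the converse. Besides 2610307P16Rik and Pvt1, the genes with the most were 5730522E02Rik (7 OPC-only, 12 OL-only), Gm35880 near Klf7 (6 and 0), 9530026P05Rik near Adamts9 (6 and 3), Gm13481 near Acvr2a (6 and 1), Gm30382 near Adgrl2 (6 and 9) and Gm15270 (6 and 6). Gm36600 had 5 of 7 and Rmst, a neural lncRNA known to bind Sox2, 5 of 8, both without an OL-only region.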

How the data were processed

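Peak lists from 4 Omni-ATAC-seq libraries were used. The submitters' processing notes name Trim Galore (version 0.3.1), Bowtie2 (2.3.2), Picard and MACS2, and the build mm10. Version and threshold of MACS2, and any Tn5 shift: not given in the sources used here. Peaks were called by the authors per library, and each deposited peak has a start and end, a score, a fold ratio against background, and p and q as −log10 values; the lowest deposited −log10 q was 3.00. Peak values were taken as the authors gave them and compared by rank inside 1 list only. No counts come with the lists: depth is unknown, and intervals for counting error were not computed.

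Regions on chromosomes 1 to 19, X and Y were merged (overlap of at least 1 bp, or touching), and 33 other sequences were left out. Genes were 21887 protein-coding intervals of RefSeq GRCm38.p6; starts were known for 17492. All 473 list entries matched. Python 3.11.15, numpy 2.4.6 and pandas 2.3.3 were used, and the functions were tested on simulated peaks.

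The members and lists were chosen with earlier results of these data known. Named were the 15 genes with the most members, the 10 with the highest share among genes with at least 10 regions, up to 3 per list with at least 3 members, the 10 largest clusters, 10 regions by size or fold, and up to 10 non-coding genes. A gene that this rule takes is not reported here. Genes named as group counterparts (Ugt8a among them) and the sequences were chosen after their values were seen. Motifs were searched in lncRNA start windows in place of whole regions. Alternatives left out each library, took stricter peaks, and changed the merging, the gene bounds, the distance and the linking gap.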

Additional observations from a re-analysis of the deposited data

How the results depend on the processing

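No paired test was run, because the results are descriptions without a test. Each line has an OPC and an OL library, and values within each line stand beside the results instead. Leaving out 1 library in turn gave 12487 to 23500 regions, a median distance of 40.7 to 43.2 kb, 29.7% to 31.2% beyond 100 kb, 10.3% to 25.6% in clusters of 3 or more and 18.6% to 38.2% of next regions OPC-only, where 13.8% to 28.1% after any region were. The high counts came without an OPC library, since 1 OPC peak then sufficed: 22165 without 129O1 OPC and 23500 without EpiSC5 OPC. With the upper 50% of peaks by q in all lists there were 5507 regions, at a median of 39.4 kb, 28.6% beyond 100 kb and 1.71% in clusters. With the upper 50% of OPC peaks against whole OL lists there were 2753, at 49.7 kb and 32.7%, with 0.690% in clusters and 6.62% of next regions OPC-only, where 3.63% after any region were. Peaks up to 200 bp apart merged gave 43.9 kb and 31.7%, no OL peak within 1 kb gave 46.6 kb and 32.8%, and a limit of 5 kb from gene ends gave 53.2 kb and 34.3%. With all annotated genes as bounds the median was 14.6 kb and 6.93% lay beyond 100 kb. Measured to the nearest gene start the values were 76.5 kb and 43.5%. Linking at 5 kb put 2.29% in clusters and linking at 50 kb 36.3%. Myc had the most OPC-only regions among the 15 leading genes under each of these settings, except with all annotated genes as bounds, where closer non-coding genes took its regions and it had 0. The other leading genes lost most or all of theirs under those bounds too. Sox2, Bcor, Sox4, Trib2, Eno1b, Acvr2a and Tbl1xr1 had 0, and the most at any of the 15 was 3, at Gm6569. Depth is unknown, so the share of regions that a deeper OL library would remove was not tested.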
